A study of Mus musculus with 12 samples.

Results

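Cholesterol is the starting material of every steroid that the adrenal makes, and the 33 genes described here cover its synthesis, uptake, transfer, storage as ester and export. They were listed by their role in this pathway. All 33 are among the 39017 genes of the deposited count table, and all 33 passed the filter on low counts that left 14953 genes for testing. They do not make up the whole pathway. Whole adrenals of female mice aged 10 to 11 weeks, on a mixed sv129-C57Bl/6 background, were sequenced with 1 library per mouse. The 6 control mice (Ctrl) had the genotype ASCre/+, and the 6 βCat-GOF mice ASCre/+ :: Ctnnb1fl(ex3)/+. By these genotypes both groups carry Cre at the aldosterone synthase (Cyp11b2) locus, which is active in cells of the zona glomerulosa (zG). The titles of the Ctrl samples read Wt_Ctr, however, and the paper's text calls the controls of this comparison wild type. Only βCat-GOF mice carry the Ctnnb1 allele whose exon 3 is removed by Cre so that β-catenin is stabilized. Because RNA came from the entire gland, each value averages the zG with the zona fasciculata (zF), the inner cortex, the medulla and other cells, and fewer cells of a type and less RNA per cell cannot be told apart.

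Cells make cholesterol from acetyl-CoA. Acetyl-CoA units are joined to HMG-CoA and turned through mevalonate into farnesyl diphosphate, which is joined in pairs to squalene, and squalene is closed into a ring and trimmed to cholesterol. Transcription of these enzymes is driven by the SREBP factors, which SCAP carries to the Golgi for activation when sterol is scarce and which INSIG proteins hold back when sterol is plentiful. The mouse adrenal also takes up cholesteryl ester from high-density lipoprotein through SR-BI, encoded by Scarb1, and keeps a large store of ester in lipid droplets, most of all in the zF.

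Between 13484675 and 25625494 reads per mouse were counted on genes. Mice are numbered 1 to 6 within a group in the order of deposition, and the numbers pair no mice. The labels of the Ctrl mice begin with 1 number, those of 5 βCat-GOF mice with another and that of βCat-GOF 5 with yet another, so this number and the genotype cannot be told apart if it marks a litter or a batch. The labels of Ctrl 1 and 2, of Ctrl 3 and 4 and of βCat-GOF 1 and 2 share a stem. The adrenal identity of the libraries is plain from Cyp11b1, the last enzyme of corticosterone synthesis, with 144025 to 348007 normalized counts per mouse. Of the 5 zG markers listed, 3 were higher in βCat-GOF by the test below, beside 2.16% of all genes tested. Cyp11b2 itself was not (log2 fold change −0.18, adjusted p = 0.82, edgeR).

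Genes were compared between the groups with edgeR's quasi-likelihood test, and a gene is called changed at a Benjamini-Hochberg adjusted p under 0.05 over all 14953 genes. Of the 33 genes, 0 were higher by this rule, beside 2.16% of all genes tested, and 1 was lower, Abcg1, beside 1.52%. With the study's cut-offs (a fold above 1.4, an adjusted p under 0.05 and a mean normalized count above 100) the counts were again 0 higher and 1 lower, beside 1.48% and 0.869% of all genes. At an unadjusted p under 0.05, Scarb1 and Npc1 were higher and Srebf1 and Abcg1 lower, which is 2 and 2 of 33, beside 9.73% and 10.7% of all genes. DESeq2 called the same single gene, Abcg1, at an adjusted p of 0.00441. The signs were less even than in the rest of the table: 26 of the 33 log2 fold changes were above 0, beside 50% of all genes, and their median was 0.27 against a median of 0.00011 over all genes. These 26 are not independent, since most of them rose and fell together from mouse to mouse, as described next.

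**Figure D1:**
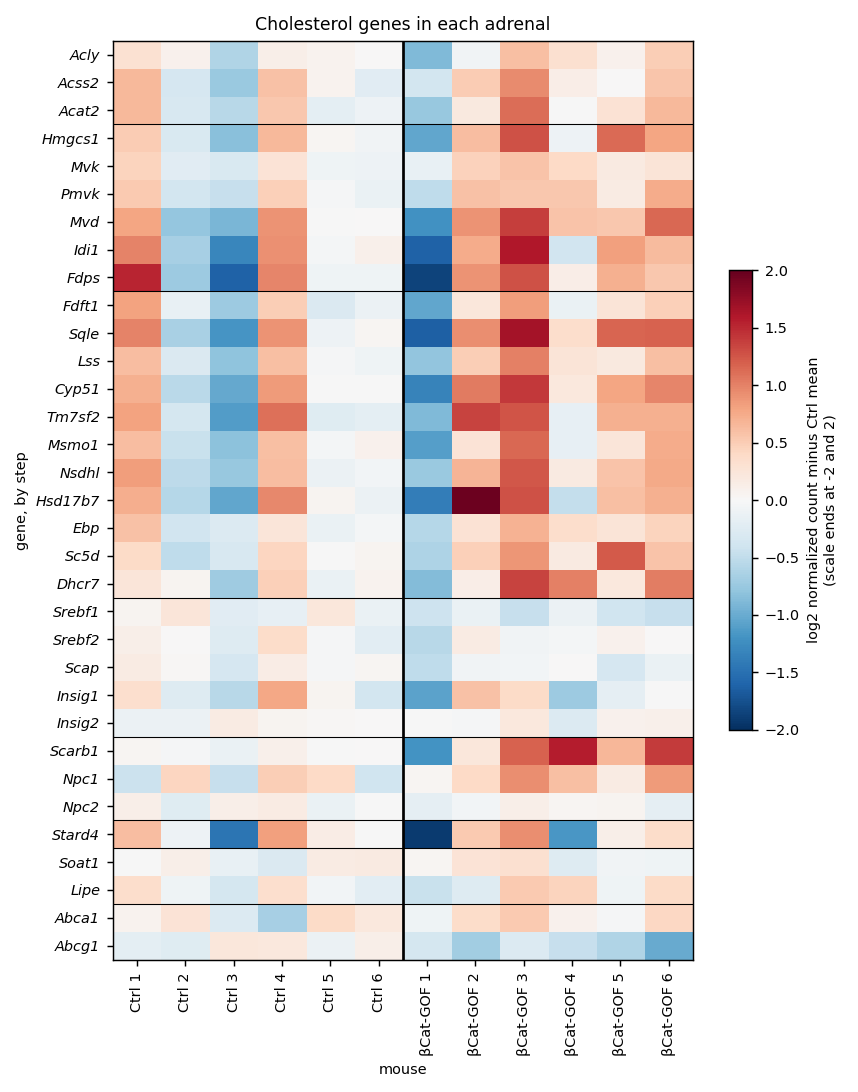
Each row is 1 of the 33 genes, ordered by step and parted by thin lines, and each column 1 mouse. Colour is the log2 normalized count minus the mean of the 6 Ctrl mice. On average the synthesis enzymes in the upper rows are lowest in Ctrl 3 and βCat-GOF 1. They are high in Ctrl 1, Ctrl 4, βCat-GOF 2 and βCat-GOF 6 and highest in βCat-GOF 3. Scarb1 differs little among Ctrl mice, and Abcg1 is below every Ctrl mouse in all 6 βCat-GOF mice.

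The 17 enzymes from HMG-CoA synthase to the last reductase differed widely between mice of the same genotype. Hmgcs1, the cytosolic HMG-CoA synthase (chr13:119690379-119708260, plus strand, GRCm38), had 7948, 4534, 3138, 8716, 5737 and 5342 normalized counts in Ctrl 1 to 6. In βCat-GOF 1 to 6 it had 2714, 8539, 13418, 5175, 12267 and 9594. βCat-GOF 1 lay below all Ctrl mice, 3 βCat-GOF mice lay above all of them, and the groups overlapped. The means were 5902 ± 2096 and 8618 ± 4099 (SD, n = 6 mice each), a log2 fold change of 0.53 with a standard error of 0.33 and an adjusted p of 0.39 (edgeR).

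Sqle, the squalene epoxidase and a point of control in the pathway, had the same lowest and highest βCat-GOF mice and a wider range. It had 2035, 652, 454, 1914, 959 and 1056 normalized counts in Ctrl 1 to 6 and 332, 1951, 3267, 1303, 2291 and 2317 in βCat-GOF 1 to 6. Its highest Ctrl mouse stood 4.48-fold above its lowest, and its highest βCat-GOF mouse 9.85-fold. Its log2 fold change of 0.68 was the largest of the 17, with a 95% confidence interval from −0.28 to 1.64 and an adjusted p of 0.41 (edgeR). Fdps, which makes farnesyl diphosphate, spread most among the controls: 11803, 2470, 1337, 8053, 3857 and 3855 in Ctrl 1 to 6. In βCat-GOF it had 1135, 7629, 9874, 4466, 6691 and 5930, so that the range of 1 group nearly covered that of the other. Exons of other genes, among them Gm43738, cover 26.7% of its exon length, and exons of others, among them Ctsb on the opposite strand, 18.3% of that of Fdft1, so reads there may be shared.

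All 17 enzymes had a log2 fold change above 0, between 0.11 (Fdft1) and 0.68 (Sqle), with a median of 0.44, yet 0 of the 17 were called, and 0 passed even an unadjusted p under 0.05. The sum of their normalized counts was 42260 ± 15920 in Ctrl and 57860 ± 23810 in βCat-GOF (SD, n = 6 mice each), a ratio of 1.37. The Ctrl range, 22100 to 61930, lay inside the βCat-GOF range, 19270 to 92300. βCat-GOF 3 (92300) and βCat-GOF 6 (68937) lay above the highest Ctrl mouse. The smallest p values belonged to the last steps. Sc5d, the lathosterol oxidase, gave a log2 fold change of 0.51 with a standard error of 0.25 and an adjusted p of 0.26 (edgeR). Dhcr7, the reductase that ends this branch, gave 0.59 with a standard error of 0.30 and an adjusted p of 0.29 (edgeR). For Sc5d 4 of 6 βCat-GOF mice, and for Dhcr7 3 of 6, lay above every Ctrl mouse. In the mevalonate segment the smallest p was that of Mvk, mevalonate kinase, whose normalized count went from 597 ± 128 to 723 ± 122 (SD, n = 6 mice each; log2 fold change 0.27, standard error 0.14, adjusted p = 0.32, edgeR). Its confidence interval, −0.043 to 0.58, leaves out a rise of the size of 1 log2 unit, whereas those of Idi1, the isomerase before Fdps (−0.60 to 1.36), and Hsd17b7, a sterol ketone reductase (−0.36 to 1.65), do not.

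The remaining enzymes had the same sign with wide intervals. In the mevalonate segment Pmvk, the second kinase, had a log2 fold change of 0.34, and Mvd, the decarboxylase, of 0.57. After squalene synthase (Fdft1) the cyclase Lss had 0.29, the demethylase Cyp51 0.57, the sterol reductase Tm7sf2 0.48, the methyl oxidase Msmo1 0.25, its dehydrogenase partner Nsdhl 0.44 and the isomerase Ebp 0.24. Adjusted p values of the 17 ran from 0.26 to 0.88 (edgeR). The 3 genes that supply acetyl units behaved alike: Acly, the citrate lyase, had 0.13, and 0 of 3 were called. Acss2, the acetate ligase, had 0.27 with a standard error of 0.25 and an adjusted p of 0.59 (edgeR). Acat2, the cytosolic thiolase, had 0.28, a standard error of 0.27 and an adjusted p of 0.61 (edgeR). Acat2 has a near copy, Acat3, identical at 97.7% of 1477 bases, so that uniquely mapping reads can be lost or split between them.

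**Figure D2:**
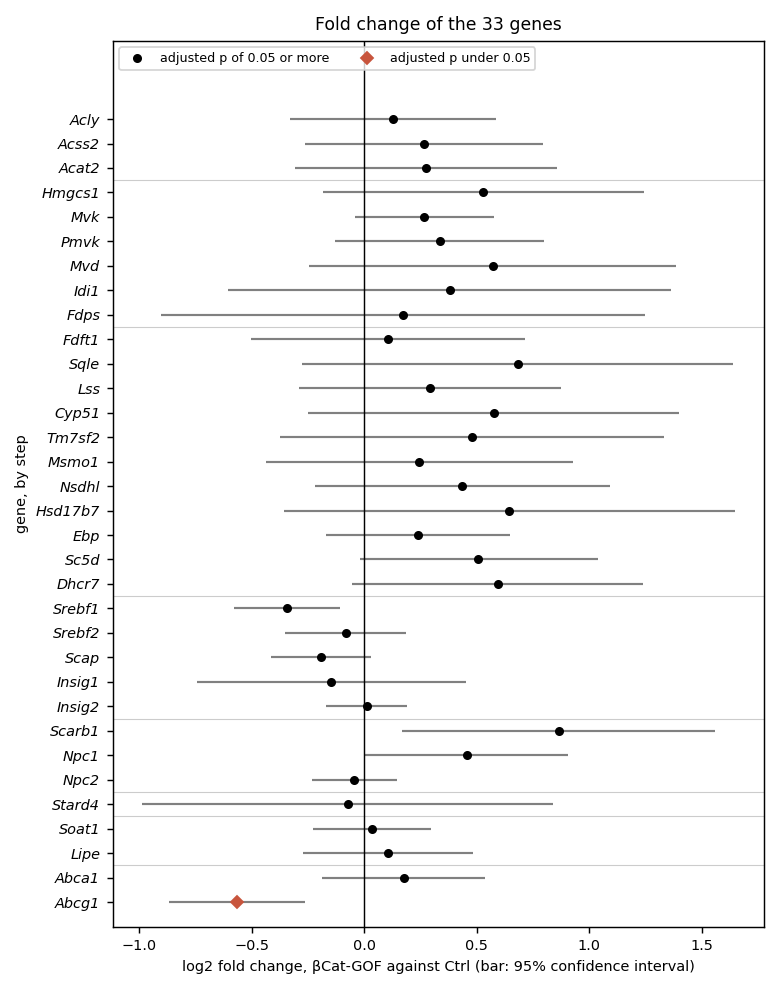
Points are log2 fold changes of βCat-GOF against Ctrl for the 33 genes, ordered by step, and bars are 95% confidence intervals (n = 6 mice each). The 3 acetyl-CoA genes and 17 enzymes in the upper rows lie right of 0 with intervals that include 0, and Abcg1 in the last row (−0.56) is the only gene with an adjusted p under 0.05.

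To follow the enzymes in single mice, the log2 levels of the 17 were averaged after the Ctrl mean of each gene had been subtracted. This average was 0.71, −0.43, −0.83, 0.67, −0.070 and −0.047 in Ctrl 1 to 6. It was −0.98, 0.72, 1.12, 0.15, 0.57 and 0.71 in βCat-GOF 1 to 6. Both groups held mice at the bottom and mice at the top: βCat-GOF 1 was the lowest of 12 mice for 13 of the 17 enzymes and Ctrl 3 for the other 4, while βCat-GOF 3 was among the top 3 mice for all 17. The highest mouse exceeded the lowest 2.91-fold within Ctrl and 4.30-fold within βCat-GOF. The SD of this average was 0.61 among Ctrl and 0.74 among βCat-GOF mice. The group means differed by 0.38 on the same log2 scale, a ratio of 1.30. Mice whose labels share a stem were also far apart. Ctrl 1 was above Ctrl 2 for 17 of 17 enzymes, Ctrl 4 above Ctrl 3 for 17 of 17 and βCat-GOF 2 above βCat-GOF 1 for 17 of 17, by 2.2-, 2.83- and 3.25-fold on average. The SD of log2 CPM among Ctrl mice had a median of 0.57 over the 17 enzymes and of 0.21 over all genes tested, and among βCat-GOF mice of 0.80 and 0.28.

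Over the 12 mice the enzymes moved together, Dhcr7, Mvk and Pmvk less closely than the rest. Pearson's correlation of each of the other 16 with Hmgcs1 over the 12 mice was between 0.742 (Dhcr7) and 0.971 (Sqle), with a median of 0.907, and Spearman's rho between 0.699 and 0.951. In this family of 75 relations (the 32 other members and 43 marker genes) the largest adjusted p of the 16 was 0.0174 for r and 0.0411 for rho (permutation test, two-sided, 100000 resamples). Without βCat-GOF 1 and Ctrl 3, the 2 mice farthest from the median, r ran from 0.45 (Dhcr7) to 0.936. Within Ctrl alone r was 0.816 to 0.994 and within βCat-GOF alone 0.649 to 0.979 (n = 6 each). All were thus positive within each genotype, but the relation was not tested there. Among the 16, 13 reached an r of 0.8, as did 0.97% of all genes tested. Of the other members, the acetyl-CoA genes Acat2 (r = 0.916, adjusted p = 0.0006, permutation test), Acss2 (0.820, 0.00608) and Acly (0.783, 0.00707) followed Hmgcs1 by r. Stard4 (r = 0.857, adjusted p = 0.00145, permutation test) and Insig1 (r = 0.737, adjusted p = 0.0197, permutation test) did so too. Acly did not pass by rho (0.615, adjusted p = 0.0986, permutation test). Without βCat-GOF 1 and Ctrl 3, r was 0.845 for Acat2, 0.712 for Acss2, 0.658 for Stard4, 0.538 for Insig1 and 0.417 for Acly. Scarb1 passed by rho (0.713, adjusted p = 0.0340, permutation test) but not by r (0.620, adjusted p = 0.0814). Srebf2, the gene of the SREBP most tied to cholesterol synthesis, had r = 0.677 (adjusted p = 0.0377, permutation test), but this rests on 2 mice, since r was 0.294 without them. Soat1 (0.142), Abca1 (0.248), Srebf1 (−0.303) and Abcg1 (−0.415) gave adjusted p values between 0.322 and 0.766 (permutation test).

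The promoters of these genes are shown because the enzymes moved together. RefSeq windows from 250 bases before to 50 bases after a start site (GRCm38.p6) were found for 26 of the 33 genes, in 35 windows. None was found for Fdps, Fdft1, Sqle, Scarb1, Npc1, Stard4 and Abcg1. Below are the 150 bases before the start of Hmgcs1, of 3 enzymes that are taken up again with the X-zone markers, and of Abca1, an exporter that did not follow Hmgcs1. Capitals mark matches, on either strand, to the sterol regulatory element TCACNCCAC, through which SREBPs act, and to CCAAT, the box bound by NF-Y (ATTGG on the other strand).
Hmgcs1 (chr13:119690201-119690350, plus strand): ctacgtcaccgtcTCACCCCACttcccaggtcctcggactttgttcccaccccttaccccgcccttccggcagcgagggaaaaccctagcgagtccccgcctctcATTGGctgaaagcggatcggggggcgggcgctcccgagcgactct
Mvd (chr8:122443423-122443572, minus strand): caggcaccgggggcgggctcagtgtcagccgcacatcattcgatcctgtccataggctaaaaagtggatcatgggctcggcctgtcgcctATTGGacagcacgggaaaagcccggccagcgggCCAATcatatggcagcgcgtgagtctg
Cyp51 (chr5:4104698-4104847, minus strand): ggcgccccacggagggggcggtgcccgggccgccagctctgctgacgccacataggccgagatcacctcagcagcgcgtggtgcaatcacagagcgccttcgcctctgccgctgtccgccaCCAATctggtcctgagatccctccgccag
Nsdhl (chrX:72918371-72918520, plus strand): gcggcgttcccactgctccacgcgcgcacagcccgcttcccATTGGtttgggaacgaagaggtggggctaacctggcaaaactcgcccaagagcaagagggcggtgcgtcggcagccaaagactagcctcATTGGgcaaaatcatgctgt
Abca1 (chr4:53159896-53160045, minus strand): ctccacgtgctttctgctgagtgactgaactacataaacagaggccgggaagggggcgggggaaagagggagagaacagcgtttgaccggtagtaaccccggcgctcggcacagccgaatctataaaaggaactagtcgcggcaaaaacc

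The sterol element, read letter by letter, was found in the window of 1 of the 26 genes, Hmgcs1, where it starts at base −137 and overlaps no CCAAT match, beside 1.43% of all genes with a window. CCAAT was in the window of 22 of the 26 genes, beside 41.0% of all genes with a window. All 14 synthesis enzymes with a window had it, and 8 of the other 12 genes. Among these 12 it was in Acly, Acss2, Insig1 and Srebf2, which followed Hmgcs1 by r, but not in Acat2, which also did. It was also in Soat1, Srebf1, Npc2 and Insig2, which did not follow, but not in Abca1, Lipe and Scap, which did not either. The TCF/LEF motif CTTTGAN, through which β-catenin acts on DNA, was in windows of 3 of the 26, Pmvk, Insig2 and Npc2, beside 18.2% of all genes. The motifs were searched separately on both strands. A match is a description of the letters only, and genes with several windows have more chances of 1.

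Markers of the X-zone moved with the enzymes. The X-zone is the innermost cortex of the young mouse, a transient layer that lingers in virgin females, and Akr1c18, which inactivates progesterone, is its classical marker. Akr1c18 had 92805, 7503, 4697, 67330, 23638 and 22111 normalized counts in Ctrl 1 to 6. In βCat-GOF 1 to 6 it had 2085, 60518, 118377, 18541, 63960 and 74166. The lowest and the highest mouse of each group for Akr1c18 were thus also the lowest and the highest for the mean of the 17 enzymes. Its r with Hmgcs1 was 0.952 over the 12 mice (rho 0.909, adjusted p = 0.000188 and 0.00195, permutation test, where the unadjusted p of r, 1e-05, is the smallest that the resamples can give), and 0.966 within Ctrl and 0.970 within βCat-GOF. Pik3c2g, another X-zone gene, had r = 0.855 (adjusted p = 0.00188, permutation test), whereas Thrsp, also on the list of 3 and known as a gene of fat synthesis, had r = 0.307 (adjusted p = 0.496, permutation test). The summed counts of the 3 ran from 6574 to 109300 in Ctrl and from 3740 to 129800 in βCat-GOF, and none was at 0 in any mouse. Between the genotypes 0 of 3 were called, and their signs differed. Log2 fold changes by edgeR were 0.61 for Akr1c18 (adjusted p = 0.71), −0.53 for Pik3c2g (adjusted p = 0.80) and 0.34 for Thrsp (adjusted p = 0.59).

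Other marker lists followed Hmgcs1 less widely. At least 1 gene passed an adjusted p of 0.05 among the adipocyte markers (Plin4, r = 0.867), the zF markers (Mrap, r = 0.750) and the markers of steroid-making cortex at large (Fdx1, r = 0.806), and 0 of the 5 zG, 5 chromaffin, 8 macrophage, 4 endothelial and 3 capsule markers did so by r. By rho, Cdh5 of the endothelium passed in the other direction (−0.748, adjusted p = 0.0237, permutation test). Whether X-zone cells hold the extra enzyme transcript was not tested, since the enzymes and Akr1c18 were read in the same RNA of the whole gland.

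**Figure D3:**
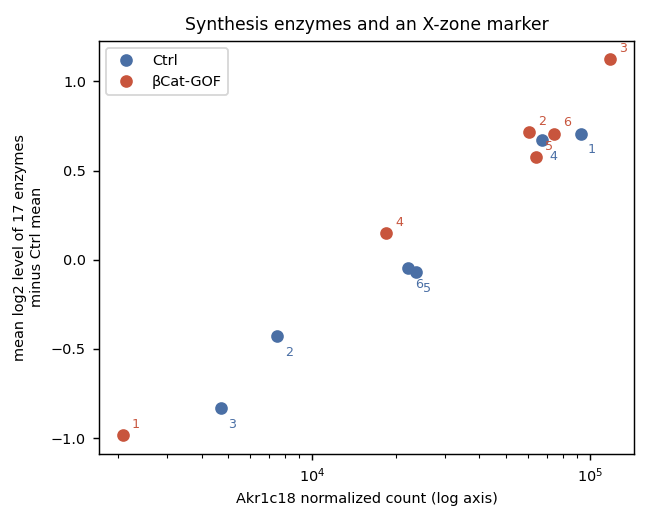
Each point is 1 mouse, with its replicate number. The x axis is the normalized count of Akr1c18 on a log scale, and the y axis the mean log2 level of 17 synthesis enzymes minus the Ctrl mean. In both genotypes the enzyme level broadly rises with Akr1c18, from βCat-GOF 1 (2085 and −0.98) to βCat-GOF 3 (118377 and 1.12) over all mice.

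An added comparison, chosen after the values above were seen, put the mean log2 CPM of Akr1c18 and Pik3c2g into the edgeR fit beside the genotype. The standard error of the enzymes shrank, from a median of 0.32 to 0.11 over the 17, while the median log2 fold change went from 0.44 to 0.37. All 17 stayed above 0, between 0.023 (Fdft1) and 0.49 (Sqle), and 4 were now called higher, beside 2.57% of all genes tested in this fit. Fold changes on the log2 scale were 0.49 ± 0.10 for Sqle (adjusted p = 0.0176), 0.37 ± 0.077 for Nsdhl (adjusted p = 0.0173), 0.41 ± 0.095 for Cyp51 (adjusted p = 0.0290) and 0.46 ± 0.11 for Mvd (adjusted p = 0.0331; value ± standard error, edgeR). Without βCat-GOF 1 the same 4 were called in this fit, and Scarb1 with them, beside 2.6% of all genes. Of Hmgcs1 (0.37, adjusted p = 0.16), Fdps (0.15, adjusted p = 0.58) and Fdft1 (adjusted p = 0.93) none was. These values describe enzyme level at an equal mean level of the 2 markers, whose own log2 fold changes had opposite signs. The markers were read in the same libraries and were picked for following the enzymes, so the fit is no independent test of the genotype.

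**Figure D4:**
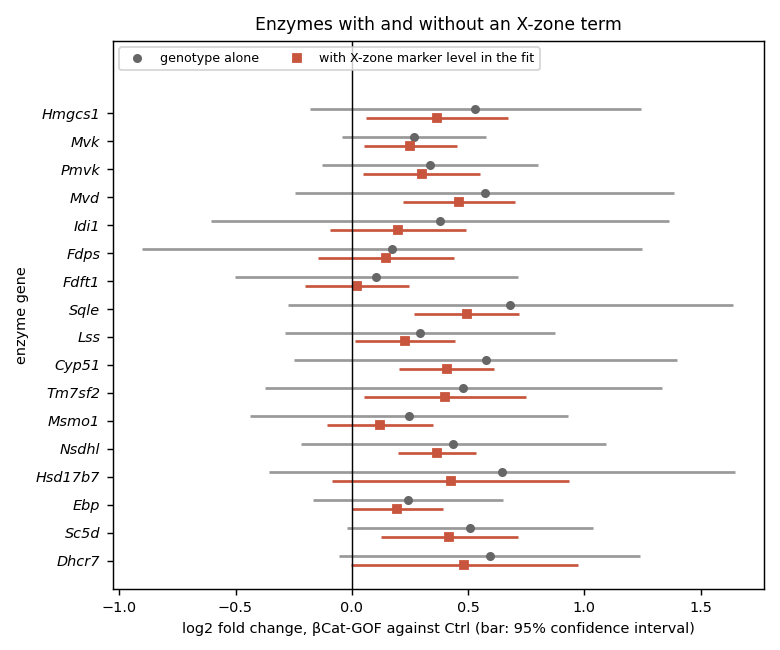
Log2 fold change of βCat-GOF against Ctrl for 17 enzymes, with 95% confidence intervals (n = 6 mice each), from the fit with genotype alone (circles) and from the fit that also holds the mean level of Akr1c18 and Pik3c2g (squares). The intervals shrink in the second fit, and those of Sqle, Nsdhl, Cyp51 and Mvd lie furthest from 0 relative to their width.

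The controllers of the pathway mostly had the opposite sign to the enzymes. Of the 5 genes of SREBP control, 0 were called. A log2 fold change below 0 was found in 4 and above 0 in 1, beside 50% of all genes above 0. The signs of Srebf2, Insig1 and Insig2 turned in fits with 1 mouse left out. Srebf1, whose main product SREBP-1c drives fatty acid synthesis, had 3837, 4365, 3141, 3282, 4292 and 3354 normalized counts in Ctrl 1 to 6 and 2757, 3364, 2672, 3402, 2800 and 2679 in βCat-GOF 1 to 6. Of the βCat-GOF mice 4 lay below every Ctrl mouse and βCat-GOF 2 and 4 within the Ctrl range. The log2 fold change was −0.34 with a standard error of 0.11 and an adjusted p of 0.104 (edgeR), and 0.0523 in DESeq2. Scap, the sterol-sensing escort of SREBPs, had −0.19 (standard error 0.10, adjusted p = 0.32, edgeR), Srebf2 −0.081, Insig1 −0.15 and Insig2 0.012.

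Insig1, itself a target of SREBPs, spread 2.53-fold within Ctrl and 3.17-fold within βCat-GOF, while Insig2 spread only 1.22- and 1.4-fold. A rise of Insig2 by more than 0.19 log2 units and a fall by more than 0.17 lie outside its 95% confidence interval.

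Scarb1 was the member that set the genotypes apart most in spread. It had 31621, 30210, 28151, 32804, 30645 and 31038 normalized counts in Ctrl 1 to 6. In βCat-GOF 1 to 6 it had 13482, 35982, 69481, 91011, 48549 and 80716. The 6 Ctrl mice lay within a 1.16-fold range, 5 of 6 βCat-GOF mice lay above all of them, and βCat-GOF 1 lay far below all of them. The means were 30750 ± 1557 and 56540 ± 29260 (SD, n = 6 mice each). The log2 fold change of 0.86 had a standard error of 0.32, a 95% confidence interval from 0.17 to 1.56 and an adjusted p of 0.159 (edgeR). Without βCat-GOF 1 it was 1.08 with an adjusted p of 0.0076 (edgeR), in a fit that called 3.73% of all genes higher, so this 1 library decides the call. The SD of its log2 CPM was 13.8 times larger in βCat-GOF than in Ctrl (1.00 against 0.073), a ratio that only Scarb1 itself reached, 0.00669% of the genes tested.

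Of the 4 zF markers, 2 had the pattern of Scarb1 over the mice. Akr1b7, an aldose reductase-like enzyme of the zF, had 32372 to 52148 normalized counts in the Ctrl mice and 26231, 56370, 141489, 176031, 145717 and 206331 in βCat-GOF 1 to 6. Mrap, the partner of the corticotropin receptor, had 2732 to 4530 in the Ctrl mice and 2377, 6261, 8958, 9029, 9368 and 9549 in βCat-GOF 1 to 6. In both, as in Scarb1, βCat-GOF 1 was below all Ctrl mice and the other 5 above all. These 2 were called higher (log2 fold change 1.49, adjusted p = 0.0458, and 1.03, adjusted p = 0.0433, edgeR), beside 2.16% of all genes tested. Cyp11b1 (−0.18) and the receptor gene Mc2r (0.16) were not. The summed zF markers ran from 295300 to 361800 in Ctrl and from 184200 to 543400 in βCat-GOF, with 184214 in βCat-GOF 1. The 5 zG markers summed to 17680 to 26370 in Ctrl, to 45495 and 43342 in βCat-GOF 1 and 2, and to 22191 to 29872 in the other 4. The part of these cell types in the values of Scarb1 was not tested.

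Past the receptor, sterol leaves the lysosome through NPC2 and NPC1. Npc1 had 1496, 2709, 1465, 2828, 2650 and 1530 normalized counts in Ctrl 1 to 6, in which 3 mice at 1465 to 1530 stood apart from 3 at 2650 to 2828. It had 2069, 2655, 3850, 3059, 2275 and 3650 in βCat-GOF 1 to 6, of which 3 lay above every Ctrl mouse. Its log2 fold change was 0.46 with a standard error of 0.21 and an adjusted p of 0.241 (edgeR). Npc2, its soluble partner, stayed between 3456 and 4576 in all 12 mice, with a log2 fold change of −0.044 and a 95% confidence interval from −0.23 to 0.14.

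Stard4, a soluble carrier that moves sterol between membranes and a target of SREBPs, went with the enzymes in most mice but not in all. It had 3170, 1933, 754, 3648, 2287 and 2059 normalized counts in Ctrl 1 to 6 and 547, 2977, 3958, 922, 2255 and 2663 in βCat-GOF 1 to 6. Ctrl 3 and βCat-GOF 1 were again the lowest of their groups and Ctrl 4 and βCat-GOF 3 the highest. βCat-GOF 4, with an enzyme average of 0.15, was an exception at 922. Its log2 fold change of −0.072 had a standard error of 0.43, an adjusted p of 0.95 (edgeR) and a 95% confidence interval from −0.99 to 0.84, an interval wide enough to hold sizeable changes in either direction.

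The genes of ester storage had small fold changes. Soat1, the enzyme that esterifies cholesterol in the adrenal cortex, ran from 10459 to 14405 normalized counts in Ctrl and from 10701 to 16018 in βCat-GOF. Its log2 fold change was 0.035 with a 95% confidence interval from −0.23 to 0.30 (adjusted p = 0.91, edgeR). Lipe, hormone-sensitive lipase, which frees cholesterol from its ester, had 0.11 (standard error 0.18, adjusted p = 0.78, edgeR), with 1807 to 2970 in Ctrl and 1700 to 3330 in βCat-GOF. Fat cells express Lipe strongly as well. The 8 adipocyte markers summed to 3760 to 21320 in Ctrl and 5241 to 17050 in βCat-GOF, 1 of 8 (Lep) had no count in at least 1 mouse, 0 of 8 were called, and their part in Lipe was not tested.

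The exporters differed from one another. Abcg1, which hands cholesterol to high-density lipoprotein, was the 1 member called (chr17:31057675-31117988, plus strand, GRCm38). It had 320, 312, 431, 428, 339 and 400 normalized counts in Ctrl 1 to 6. In βCat-GOF 1 to 6 it had 288, 227, 303, 267, 243 and 184. The groups did not overlap, and 1.16% of all genes tested were likewise lower in each βCat-GOF mouse than in any Ctrl mouse. No member lay wholly above the controls, which held for 1.61% of all genes. The means were 372 ± 54.3 and 252 ± 43.7 (SD, n = 6 mice each), and the log2 fold change was −0.56 with a standard error of 0.14, a 95% confidence interval from −0.87 to −0.26 and an adjusted p of 0.0422 (edgeR). The call stands near the threshold: it was made in 8 of 20 distinct alternatives, with adjusted p values from 0.00441 to 0.201 and log2 fold changes from −0.63 to −0.49. It was lost without Ctrl 3, 4, 5 or 6 and without βCat-GOF 2, 4, 5 or 6 (adjusted p 0.0547 to 0.0988, edgeR).

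Abcg1 is also a gene of macrophages, and most macrophage markers were lower beside it. Of 8 such markers 3 were called lower, beside 1.52% of all genes tested: Itgax (log2 fold change −1.39), Adgre1 (−0.78) and Mrc1 (−0.41). Csf1r (0.11) and Fcgr1 (0.076) had the opposite sign and were not called. The median of the 8 was −0.46. Their summed normalized counts were 4047 to 6645 in Ctrl and 3162 to 4950 in βCat-GOF, none was at 0, and their part in the fall of Abcg1 was not tested. Abca1, which exports cholesterol to lipid-poor apolipoprotein, had 8812, 10179, 6906, 5295, 10965 and 9682 normalized counts in Ctrl 1 to 6 and 7901 to 12054 in βCat-GOF. Its log2 fold change was 0.18 with a 95% confidence interval from −0.19 to 0.54 (adjusted p = 0.60, edgeR).

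**Figure D5:**
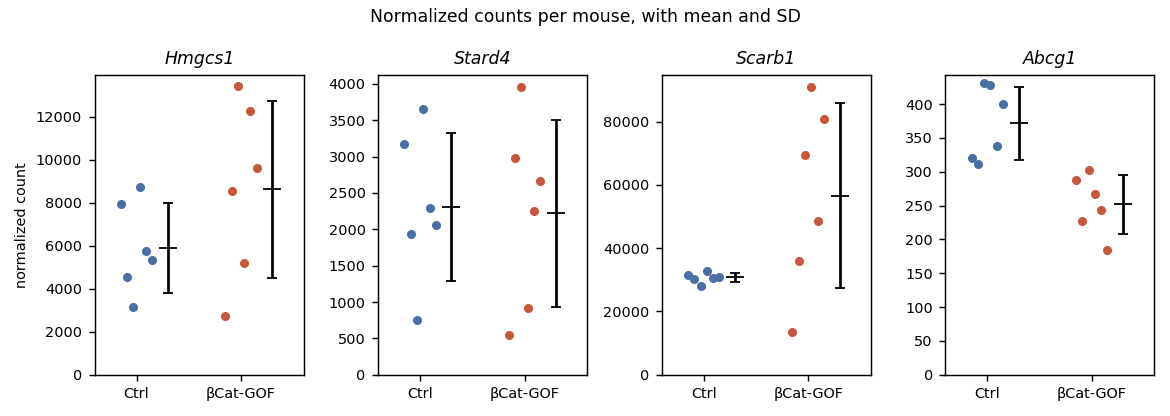
Normalized counts of Hmgcs1, Stard4, Scarb1 and Abcg1 in each mouse (points), with the mean and SD of each group at its right (n = 6 mice each). Hmgcs1 and Stard4 overlap between the groups, Scarb1 is tight in Ctrl (28151 to 32804) and spread in βCat-GOF (13482 to 91011), and Abcg1 does not overlap.

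Per kilobase of exon the members differed widely. In Ctrl the mean normalized count per kilobase was 8663 for Acly, 3617 for Scarb1, 2051 for Dhcr7, 1312 for Soat1 and 1285 for Hmgcs1. At the other end were Tm7sf2 with 94.2, Idi1 with 92.9 and Abcg1 with 50.9. Abca1 stood at 834 per kilobase, above Abcg1 in both groups. In βCat-GOF the first 3 kept their order, and Hmgcs1, at 1876, stood above Soat1, at 1353, in a group where Hmgcs1 spread 4.94-fold between mice. Levels of Fdft1 and Idi1 may be understated, since copies with at least 95% identity (Gm6781 and Gm13502) can take reads from them. Hmgcs1 matches Gm48342 over 462 bases, but that gene overlaps it on the opposite strand. Exons of other genes, among them Gm48342, cover 12.1% of the exon length of Hmgcs1, so reads there may be shared.

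Neighbouring lipid pathways held 1 called gene. Of 11 genes of fatty acid synthesis, 1 was called higher, beside 2.16% of all genes tested. It was Elovl6, which lengthens palmitate, with 1016 to 1447 normalized counts in Ctrl and 1210 to 2361 in βCat-GOF. In 5 of 6 βCat-GOF mice it lay above all controls (log2 fold change 0.60, standard error 0.15, adjusted p = 0.0405, edgeR). Scd1, the stearoyl-CoA desaturase, lay higher in 6 of 6 βCat-GOF mice than in any Ctrl mouse (3999 to 7477 against 1812 to 3713) but just missed the threshold (0.73, adjusted p = 0.0516, edgeR). The median of the 11 was 0.22. None of the lists for SREBP processing (7 genes), oxysterol sensing (5), lipoprotein receptors (4 of 5 passed the filter), sterol transfer (9) and lipid droplets (6 of 7 passed the filter) held a called gene, and their medians lay between −0.12 and 0.093. Among the droplet coat proteins Plin2 had a log2 fold change of −0.44 (adjusted p = 0.0977, edgeR) and Plin5 of 1.57 (adjusted p = 0.17, edgeR), the second with 46 to 1255 normalized counts in βCat-GOF and 49 to 261 in Ctrl.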

How the data were processed

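Adrenals of 12 mice (6 Ctrl, 6 βCat-GOF) were profiled by RNA-seq. Per the labels and methods, the authors aligned reads to mm10 with STAR, used featureCounts 1.4.4 to assign uniquely mapped reads to genes and deposited the resulting counts, which are not normalized. Their own test was DESeq2 1.6.3. The annotation release and strand setting are not given in the sources used here. The authors also deposited a signal table of counts scaled per library, which was not used for any value here. No column was left unmapped.

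The counts of 39017 genes were tested with edgeR 4.0.16 under R 4.3.3: filterByExpr, TMM factors and a two-sided quasi-likelihood test whose p-values were adjusted by Benjamini-Hochberg for 14953 genes. Normalized counts are counts divided by DESeq2 1.42.0 median-of-ratios factors, and log2 CPM used a prior count of 2. A standard error is the log2 fold change divided by the square root of F. Labels do not say whether mice shared a litter. The p-values treat the mice as independent and may be too small for the genotype if they are not. Positions and exons came from GENCODE M21 (GRCm38), copies from blastn 2.17.0 (95% identity or more along 10% or more of a transcript) and promoters from RefSeq. The scripts were tested on simulated counts.

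The 33 genes and all lists were chosen with earlier results of these data known. Every member is accounted for by its step. Full statistics are given for called members and for the 2 of each step with the smallest p, and at most 3 genes are named per other list. Plin2, Plin5, Scd1 and the uncalled markers set beside a result were named after their values were seen. Alternatives were DESeq2, other size factors, no filter, at least 10 counts in every library, 1 surrogate variable (sva 3.50.0), leaving out libraries and, added after seeing the data, X-zone markers as a covariate.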

Additional observations from a re-analysis of the deposited data

How the results depend on the processing

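Over 20 distinct alternatives (leaving out the library of another label number is the same fit as leaving out βCat-GOF 5), the count of members called higher was 0 in every one except without βCat-GOF 1 (1, Scarb1), with the X-zone covariate (4, beside 2.57% of all genes, and 1 with the study's cut-offs, beside 1.72%) and with that covariate and without βCat-GOF 1 (5, beside 2.6%, and 4 with the cut-offs, beside 1.99%). Leaving out 1 mouse at a time gave 0 to 1 by either rule. The count called lower, 1 (Abcg1), fell to 0 with no filter, with 1 surrogate variable, without the second library of each shared label stem, without the library of another label number and in the combined covariate fit, again by either rule, and lay between 0 and 1 with 1 mouse left out. The adjusted p of Abcg1 was 0.0553, 0.0541, 0.201, 0.0833 and 0.0574 in these 5 fits (edgeR). Fewer libraries were tested in 3 of them. For the other 2 the cause was not tested.

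Signs of log2 fold changes turned in 7 members, none of them called. With 1 mouse left out, Fdps ranged from −0.028 to 0.598, Fdft1 from −0.056 to 0.312, Srebf2 from −0.12 to 0.010, Insig1 from −0.309 to 0.050, Insig2 from −0.028 to 0.062, Stard4 from −0.312 to 0.14 and Soat1 from −0.028 to 0.086. Soat1 was also −0.047 without the second library of each shared stem. Of 660 values for single members, 618 kept sign and side of the threshold.

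No paired analysis was possible because the replicate numbers only follow the order of deposition. The spread between mice limits what can be said of the enzymes: with 6 mice a group a 1.4-fold difference in Sqle or Fdps lies inside the confidence interval.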

Other observations

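Plin4, a droplet protein listed among the adipocyte markers, also followed Hmgcs1. It had 1452, 204, 255, 2857, 551 and 279 normalized counts in Ctrl 1 to 6 and 199, 1160, 3094, 620, 904 and 1704 in βCat-GOF 1 to 6, and its r with Hmgcs1 was 0.867 over the 12 mice (adjusted p = 0.0019, permutation test). Adiponectin (Adipoq), the defining marker of fat cells, had r = −0.243 (adjusted p = 0.579, permutation test). The other 6 adipocyte markers had r between −0.467 (Lep) and 0.474 (Plin1), and none of them passed an adjusted p of 0.05. Fdx1, the ferredoxin that feeds electrons to mitochondrial steroid enzymes, had 8785 to 14429 normalized counts in Ctrl and 6645, 16254, 27924, 19847, 19969 and 26456 in βCat-GOF 1 to 6, with βCat-GOF 1 below and the other 5 above all Ctrl mice, as for Scarb1. Its log2 fold change was 0.77 with an adjusted p of 0.115 (edgeR).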
